A study of Homo sapiens with 8 samples.

Results

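Inhibins, activins and TGF-beta ligands are secreted signals of the TGF-beta superfamily. The genes chosen by name for this account were INHBA, INHBB, INHBE and INHA, which encode inhibin and activin subunits, FST and FSTL3, which encode activin-binding glycoproteins, and TGFB1, TGFB2, TGFB3 and BMP4. These are 10 of the 34809 gene names on the array, and 8 of them were among the 20449 genes bright enough to be tested. The names were listed with results of these arrays known, so that every value and call on them below is a description. RNA of the human cholangiocarcinoma line HuCCT1, an established cell line, was read on 8 single-colour arrays, 2 for each of 4 vectors. The vectors shControl and shNontarget were the controls, and shBEX2-1 and shBEX2-2 expressed short hairpin RNAs against BEX2. The study describes retroviral delivery of the hairpins and a control hairpin against luciferase, without saying which of the control vectors carried it. As its methods print them, the target sequences of the BEX2 hairpins are reverse complements of each other apart from their ends. No source used here says whether replicate arrays hold separate cultures, so that p-values measure the spread between arrays, which may be technical. Deposited file names give replicates 1 and 2 a day each, and the main models had no term for it.

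An activin is a dimer of inhibin beta chains, and an inhibin pairs a beta chain with the alpha chain that INHA encodes. Activins and TGF-betas bind type II and type I serine/threonine kinase receptors, which phosphorylate SMAD2 and SMAD3, whereas BMP4 acts through receptors that phosphorylate SMAD1 and SMAD5. Follistatin, the product of FST, and its relative FSTL3 wrap activin dimers and keep them from the receptors, and TGF-betas are secreted in a latent form that is held in the matrix. In bile duct epithelium this pathway is known for restraint of growth and for its part in fibrosis.

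A level here is the log2 of a probe's intensity minus the 75th percentile of its array, so that 0 is a bright spot of that array and levels of different probes cannot be set against each other. That percentile ran from 662 to 835 intensity units with the control vectors and from 437 to 626 with the BEX2 hairpins. All arrays lay on 1 slide, controls in one row and BEX2-knockdown arrays in the other, so that slide row and group cannot be told apart. The shNontarget arrays stood apart from the rest. In 34.9% of the tested genes their log2 levels lay more than 1 apart, against between 0.557% and 1.78% for the other vectors. BEX2, the targeted gene, read 71.0 and 55.7 intensity units with shControl, 115 and 48.8 with shNontarget, and 20.4 and 26.0 with shBEX2-2. It read 11.9 and 11.1, not well above background, in shBEX2-1 cells, at least 3.33-fold below shControl cells. This bound takes, for the dim vector, the higher of the probe's own level and the lowest level well above background, and allows for no error of measurement. The biliary and epithelial markers KRT7, KRT19, EPCAM, SOX9 and CDH1 were well above background on 8 of 8 arrays, and ALB, TTR, COL1A2, COL3A1 and PECAM1 on 0. COL1A1, CD68 and VWF were well above background on 8 arrays, PTPRC on 7, APOA1 on 6 and PDGFRB on 1.

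INHBB and FST were the members past the threshold between some pair of vectors, and the sequences upstream of both genes are shown for that reason. RefSeq's promoter table for GRCh38.p14 held 9 of the 10 members. The windows below are the 250 bases before the start of each gene on the plus strand, at chr2:120345886-120346135 for INHBB and at chr5:53480379-53480628 for FST. Capitals mark every match, on either strand, to the GC box (GGGCGG) or the AP-1 site (TGANTCA), with overlapping matches merged.
INHBB: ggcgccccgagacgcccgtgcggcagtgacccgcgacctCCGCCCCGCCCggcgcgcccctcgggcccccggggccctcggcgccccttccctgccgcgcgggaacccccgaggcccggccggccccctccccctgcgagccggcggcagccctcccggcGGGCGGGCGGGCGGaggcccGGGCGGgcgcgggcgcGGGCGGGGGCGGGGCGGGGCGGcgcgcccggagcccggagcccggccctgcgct
FST: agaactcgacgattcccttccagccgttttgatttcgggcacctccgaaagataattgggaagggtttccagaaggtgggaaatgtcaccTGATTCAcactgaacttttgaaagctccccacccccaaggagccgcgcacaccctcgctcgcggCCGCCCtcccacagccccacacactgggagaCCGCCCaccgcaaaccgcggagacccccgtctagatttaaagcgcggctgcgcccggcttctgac
The INHBB window was 89.6% G and C, a share that 10 of the 35116 windows in the table reached or passed, against a median of 58%. It held 10 matches to the GC box, some of them overlapping, and the FST window, 60% G and C, held 2. A GC box was found in 42.6% of all windows of this length. FST also had 1 match to the AP-1 site, which 6.57% of all windows hold. Neither window matched the cAMP response element (TGACGTCA, 1.65% of windows), the SMAD-binding core (CAGAC, 38% of windows) or the E-box (CACGTG, 6.34% of windows), and nothing follows from this about any of these factors.

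Of the ligand subunits, INHBB showed the widest range of vector means among the 8 tested members, and it separated the BEX2-knockdown sublines from each other. INHBB encodes the beta B chain of activin B and inhibin B. It was read by 1 probe, A_23_P153964 for NM_002193, at chr2:121108780-121108839 of hg19, printed in 2 spots. Its intensity was 934 and 1017 units with shControl, 1160 and 1057 with shNontarget, 118 and 165 with shBEX2-1, and 1070 and 908 with shBEX2-2. On the log2 scale these levels were 0.37 and 0.29 with shControl, 0.65 and 0.67 with shNontarget, -1.89 and -1.63 with shBEX2-1, and 0.81 and 0.54 with shBEX2-2. Both shBEX2-1 arrays lay below the other 6 arrays by far more than replicates of any vector lay apart, and the shBEX2-2 arrays lay among or above the controls. The spots of the probe differed little, with a standard deviation of at most 0.084 on any array. Whole cultures were measured, so that fewer cells with INHBB RNA and less of it per cell cannot be told apart.

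In the model of all 4 vectors, INHBB was 4.26-fold lower in shBEX2-1 than in shControl cells (log2 difference -2.09, standard error 0.16, adjusted p = 0.00794 from limma). This contrast called 5.32% of all genes tested and 1 of the 8 members. Against shNontarget, the log2 difference was -2.42 (adjusted p = 0.0134 from limma), in a contrast that called 3.11% of all genes and again 1 member, INHBB. This call was lost in 6 of 6 fits that left out 1 array of shControl, shBEX2-1 or shBEX2-2 (adjusted p from 0.0933 to 0.208 from limma). Between the sublines INHBB was 5.40-fold higher in shBEX2-2 cells (log2 difference 2.43, 95% confidence interval 2.04 to 2.83, adjusted p = 0.0454 from limma). That contrast called 0.00978% of all genes, INHBB and RSAD2, an interferon-induced antiviral gene, with 1481 genes at an unadjusted p under 0.05. With the replicate number as a block, the sublines' difference in INHBB had an adjusted p of 0.118 from limma, and both calls against the controls held (0.0222 and 0.0393).

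The other 3 contrasts of INHBB did not pass. The log2 difference between shBEX2-2 and shControl cells was 0.34 (95% confidence interval -0.05 to 0.74, adjusted p = 0.311 from limma). Between shBEX2-2 and shNontarget cells it was 0.01 (95% confidence interval -0.38 to 0.41, adjusted p = 0.983 from limma). Between the control vectors it was 0.33 (95% confidence interval -0.06 to 0.73, adjusted p = 0.737 from limma). The order of the INHBB means therefore ran from shBEX2-1 through shControl and shNontarget to shBEX2-2, and only the step from shBEX2-1 to shControl passed the test. When all BEX2-knockdown arrays were compared with all control arrays, the log2 difference was -1.04 (standard error 0.59, adjusted p = 0.294 from limma), an average over a subline that fell and one that did not.

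**Figure D1:**
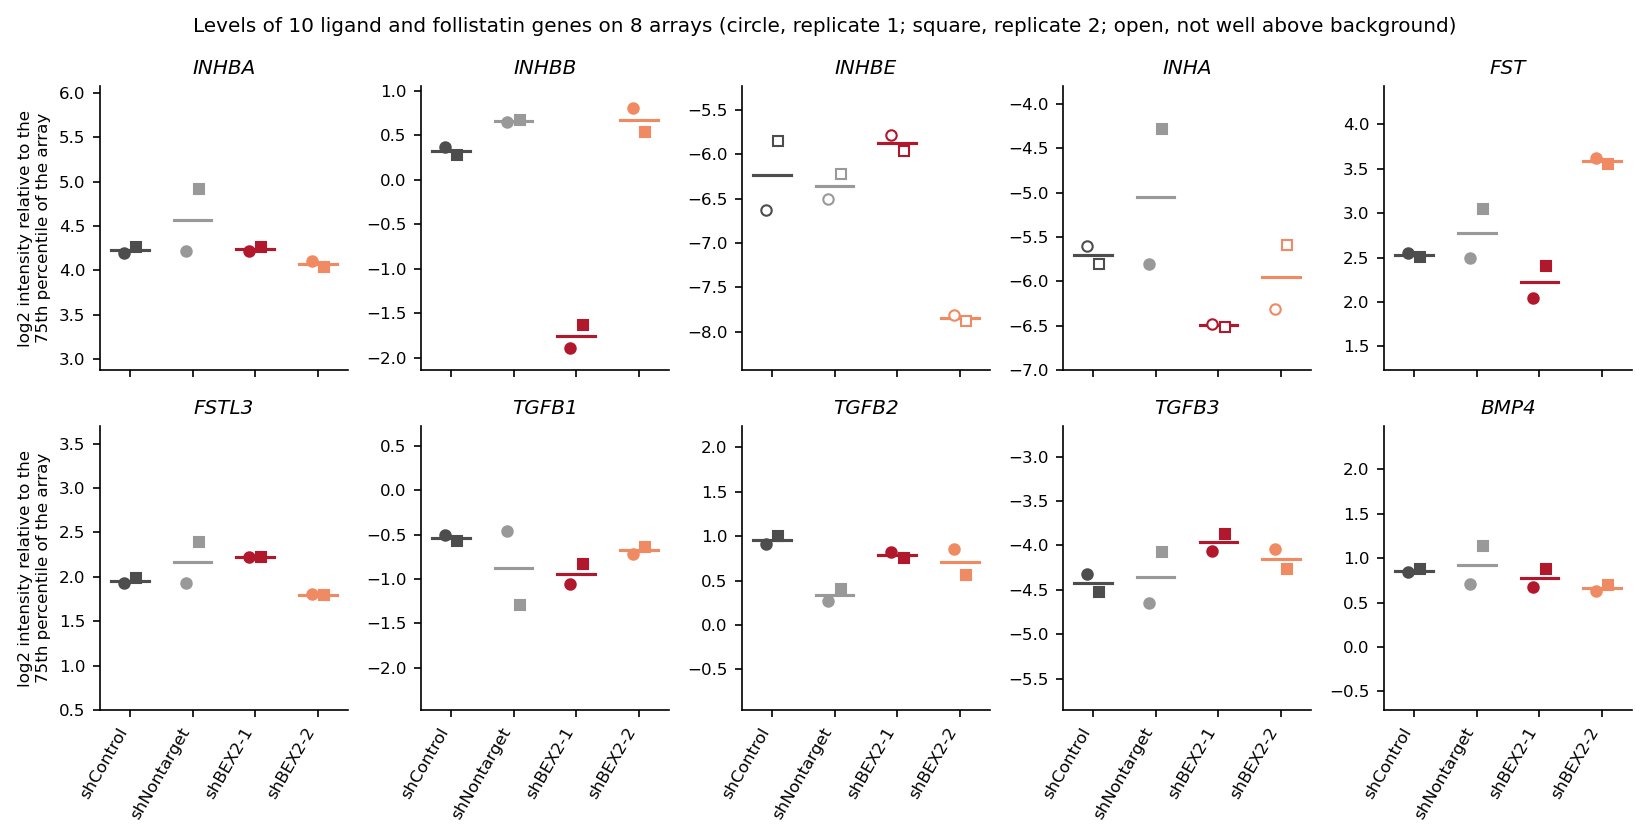
Log2 intensity relative to the 75th percentile of each array for the 10 genes, by vector, with replicate 1 as circles, replicate 2 as squares, the mean of 2 arrays as a bar and open symbols where the probe was not well above background. Every panel spans the same log2 range around its own centre, and INHBB lies at -1.89 and -1.63 in shBEX2-1 cells against 0.29 to 0.81 on the other 6 arrays.

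INHBA encodes the beta A chain of activin A. Its probe (A_23_P122924 for NM_002192, chr7:41729246-41729305 of hg19, 10 spots) gave log2 levels of 4.20 and 4.26 with shControl, 4.22 and 4.92 with shNontarget, 4.22 and 4.27 with shBEX2-1, and 4.11 and 4.03 with shBEX2-2. Apart from the single shNontarget array at 4.92, all arrays lay between 4.03 and 4.27. The 6 log2 differences between vectors ran from -0.50 to 0.34, and the lowest adjusted p among them was 0.314 from limma. Between shBEX2-1 and shControl cells the difference was 0.02 (95% confidence interval -0.58 to 0.61), so that INHBA showed no fall of the size seen for INHBB in the same arrays.

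INHBE and INHA were close to or under the detection limit. INHBE, which encodes the beta E chain that is known from liver, was well above background on 0 of the 8 arrays, so that no fold is given. INHA, the alpha chain of the inhibins, was well above background on both shNontarget arrays and on none of the other 6. Its log2 levels in shNontarget cells were -5.80 and -4.29, and the 2 spots behind the first of these had a standard deviation of 1.30. By the same kind of bound, INHA was at least 1.57-fold higher in shNontarget than in shControl cells, at least 1.98-fold higher than in shBEX2-1 cells and at least 1.87-fold higher than in shBEX2-2 cells. The first shNontarget array, at -5.80, was no brighter than the shControl arrays, at -5.60 and -5.80, so that these bounds rest on the second shNontarget array.

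FST was highest in shBEX2-2 cells. Follistatin, its product, is a secreted antagonist of activin. The probe (A_23_P110531 for NM_013409, chr5:52780837-52780896 of hg19, 10 spots) read 4247 and 4725 intensity units with shControl, 4179 and 5482 with shNontarget, 1803 and 2700 with shBEX2-1, and 7513 and 7366 with shBEX2-2. The corresponding log2 levels were 2.55 and 2.50, 2.50 and 3.05, 2.05 and 2.40, and 3.62 and 3.56. Both shBEX2-2 arrays lay above the other 6, and both shBEX2-1 arrays lay below all others. The standard deviation of the 10 spots was at most 0.064 on any array.

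Against shControl, FST was 2.08-fold higher in shBEX2-2 cells (log2 difference 1.06, standard error 0.23, adjusted p = 0.0446 from limma), the single member called in a contrast that called 7.37% of all genes. This call was lost with the replicate number as a block (adjusted p = 0.0568 from limma). Against shNontarget the log2 difference was 0.81 (95% confidence interval 0.27 to 1.36, adjusted p = 0.0986 from limma), and 0 of the 8 members passed in that contrast, which called 6.19% of all genes. Between the sublines FST differed by 1.36 (95% confidence interval 0.82 to 1.91, adjusted p = 0.131 from limma). Between shBEX2-1 and shControl cells the log2 difference was -0.31 (95% confidence interval -0.85 to 0.24, adjusted p = 0.539 from limma). The order of the FST means was the same as for INHBB, from shBEX2-1 through shControl and shNontarget to shBEX2-2, and no neighbours in that order differed past the threshold. Over all knockdown and control arrays the log2 difference was 0.25 (standard error 0.36, adjusted p = 0.698 from limma).

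FSTL3, a follistatin-like binder of activin and myostatin (probe A_33_P3318796 for NM_005860, chr19:683145-683204 of hg19), gave log2 levels of 1.93 and 1.98 with shControl, 1.93 and 2.40 with shNontarget, 2.22 and 2.22 with shBEX2-1, and 1.81 and 1.80 with shBEX2-2. The shBEX2-2 arrays lay 0.011 apart, and the shNontarget arrays 0.47. The sublines were ordered the other way round than for FST, with shBEX2-2 below shBEX2-1 by a log2 difference of -0.42 (95% confidence interval -0.86 to 0.02, adjusted p = 0.715 from limma). No contrast of FSTL3 passed, the lowest adjusted p being 0.318 from limma.

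**Figure D2:**
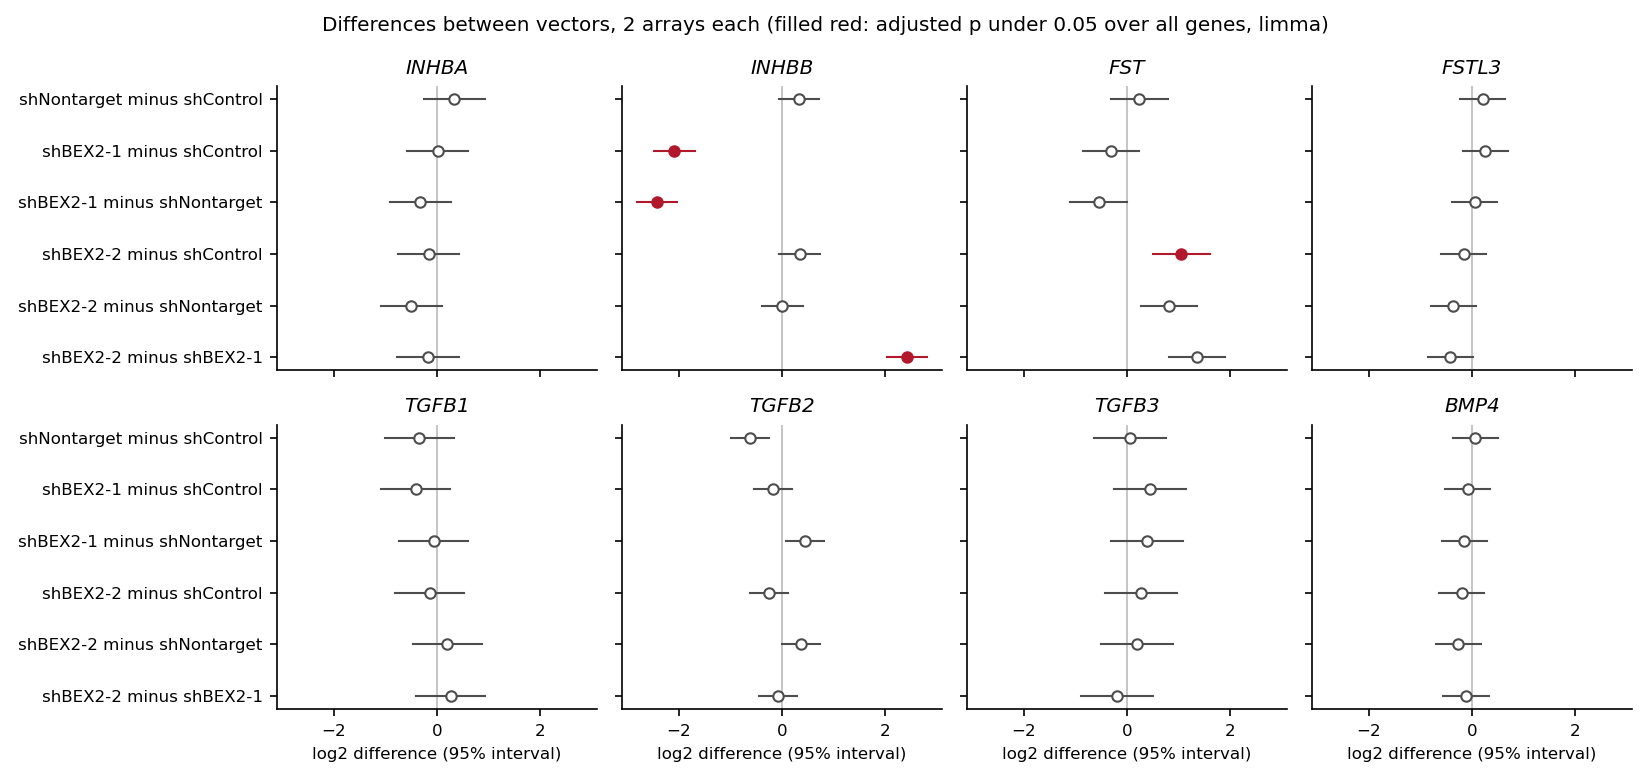
Log2 difference with its 95% confidence interval for the 6 pairs of vectors and the 8 tested genes, 2 arrays a vector, with filled red symbols for an adjusted p under 0.05 from limma over all 20449 genes. The filled symbols are INHBB at -2.09, -2.42 and 2.43 and FST at 1.06.

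The TGF-beta ligands themselves and BMP4 varied less than INHBB and FST. TGFB1, whose product is the most widely expressed TGF-beta (probe A_24_P79054 for NM_000660), gave log2 levels of -0.50 and -0.57 with shControl, -0.46 and -1.30 with shNontarget, -1.05 and -0.83 with shBEX2-1, and -0.72 and -0.64 with shBEX2-2. The shNontarget arrays again disagreed, by 0.83, although each reading averaged up to 10 spots. Both sublines lay below both shControl arrays, by -0.41 for shBEX2-1 (95% confidence interval -1.08 to 0.26, adjusted p = 0.496 from limma) and by -0.14 for shBEX2-2 (adjusted p = 0.873 from limma).

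TGFB2 separated the control vectors more than it separated either subline from shControl. Its probe was A_24_P402438 for NM_003238, at chr1:218614784-218614843 of hg19. The log2 levels were 0.91 and 1.00 with shControl, 0.27 and 0.40 with shNontarget, 0.82 and 0.76 with shBEX2-1, and 0.86 and 0.56 with shBEX2-2. Both shNontarget arrays were the lowest of the 8, and unlike for INHBA, FST and TGFB1 they lay within 0.13 of each other. The shNontarget mean was below the shControl mean by a log2 difference of -0.62 (95% confidence interval -0.99 to -0.25), at an unadjusted p of 0.00632 and an adjusted p of 0.413 from limma. That contrast called 0 of all genes tested, and 1572 genes had an unadjusted p under 0.05. The difference between either subline and the controls thus had opposite signs for the 2 control vectors: shBEX2-1 was -0.17 from shControl and 0.45 from shNontarget, and shBEX2-2 was -0.25 and 0.37.

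TGFB3 (probe A_23_P88404 for NM_003239, chr14:76424904-76424963 of hg19) was dim but well above background on all 8 arrays. Its intensity lay between 26.1 and 39.4 units, and its log2 levels lay between -4.65 and -3.87. The largest of its 6 pairwise differences was 0.46, for shBEX2-1 against shControl (95% confidence interval -0.24 to 1.16, adjusted p = 0.459 from limma). BMP4, a ligand of the BMP branch (probe A_23_P54144 for NM_001202, chr14:54417318-54417377 of hg19), had log2 levels of 0.84 and 0.88 with shControl, 0.71 and 1.14 with shNontarget, 0.68 and 0.88 with shBEX2-1, and 0.63 and 0.70 with shBEX2-2. Both shBEX2-2 arrays lay below every control array, the shBEX2-1 arrays overlapped with both groups, and its pairwise differences ran from -0.26 to 0.07 with adjusted p-values of at least 0.485 from limma.

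In the comparison of the 4 BEX2-knockdown with the 4 control arrays, 0 of the 8 members were called, where 12.9% of all genes were. Of so few genes, 0 calls is close to that share. The model took the 4 arrays of each group as independent, although they came from 2 vectors with 2 arrays each. Log2 differences of the members ran from -1.04 for INHBB to 0.33 for TGFB3, with a median of -0.08 against 0.03 for all genes. None of the 8 had an unadjusted p under 0.05, the lowest being 0.11 for INHBB, and none was called by the methods' t-test after adjustment or by a rank product. The 95% confidence interval spanned -0.46 to 0.12 for BMP4 but -2.36 to 0.28 for INHBB, whose means were -1.76 in shBEX2-1 and 0.67 in shBEX2-2 cells. Within vectors INHBB was not read less precisely. In the model of all 4 vectors, the standard error of a difference was 0.163 for INHBB and 0.181 for BMP4.

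Since the shNontarget arrays widened the spread shared by the 4-vector model, it was also fitted without them, a choice made after the data had been seen. The contrasts then called 43.4% of all genes for shBEX2-1 against shControl, 43.9% for shBEX2-2 against shControl, and 14.4% between the sublines. INHBB, FSTL3 and TGFB1 were the 3 members called in the first of these, FST alone was called in the second, and INHBB, FST and FSTL3 in the third. The differences are those given above. INHBB differed between the sublines at an adjusted p of 0.000143, FST at 0.000691 and FSTL3 at 0.00715, all from limma. INHBB in shBEX2-2 against shControl cells had an adjusted p of 0.0544 in that fit. Leaving out any 1 array of another vector had the opposite effect: 0 of the 6 such fits called INHBB in shBEX2-1 against shControl cells, with adjusted p-values from 0.0531 to 0.121 and log2 differences from -2.22 to -1.96.

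Genes whose levels followed the same pattern over the 8 arrays were sought among all tested genes, as a description with no test, since arrays of a vector may share their cells. For INHBB these were PQLC1, GOLGA4 and EPB41L4B, with Pearson correlations of 0.978, 0.976 and 0.974. For FST they were FNBP1, TACC1 and LOXL3, at 0.982, 0.979 and 0.973. For TGFB2 they were HOXB9 at 0.972, RHOQ at 0.964 and a lincRNA probe at 0.956. Each of the genes like INHBB was lowest on the shBEX2-1 arrays, and each of those like FST was highest on the shBEX2-2 arrays. They were chosen by that likeness, so that the shared pattern is no separate result.

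**Figure D3:**
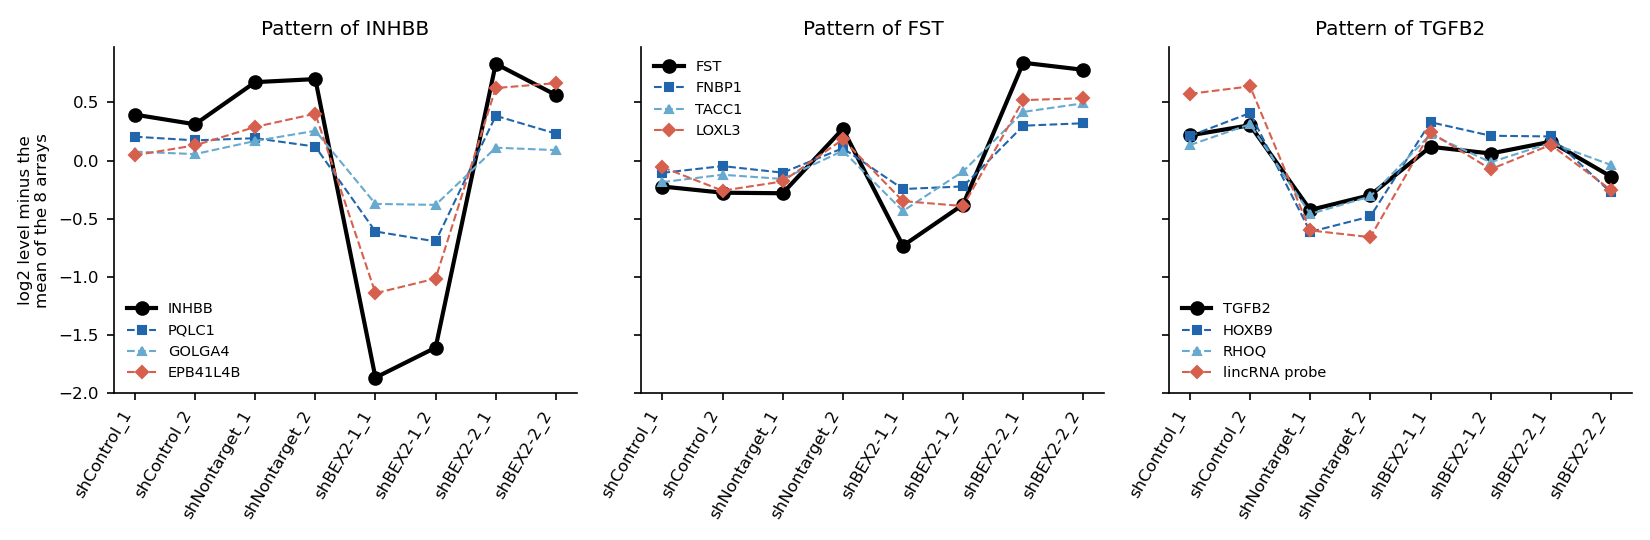
Log2 level on each of the 8 arrays minus the mean of the 8, for INHBB, FST and TGFB2 (black) and for the 3 genes with the highest Pearson correlation to each. INHBB and its 3 companions dip on the shBEX2-1 arrays, FST and its companions peak on the shBEX2-2 arrays, and TGFB2 and its companions are low on the shNontarget arrays.

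Of 78 other genes of the superfamily, listed by role with earlier results known, 61 were tested. In BEX2-knockdown against control cells, 5 of them rose and 18 fell, or 37.7% against 12.9% of all genes, with a median log2 difference of -0.33 against 0.03. Arrays of the same vector were again taken as independent in that comparison. Against shControl, 14 fell and 2 rose in shBEX2-1 cells, where 559 of all genes fell and 529 rose (5.32% in all), and 15 fell and 2 rose in shBEX2-2 cells, where 727 fell and 780 rose (7.37%). Against shNontarget, 8 fell and 2 rose in shBEX2-1 cells, beside 330 falls and 305 rises among all genes (3.11%), and 11 fell and 3 rose in shBEX2-2 cells, beside 611 and 655 (6.19%). These comparisons share control arrays. Between the sublines and between the control vectors 0 of the 61 were called, in contrasts that called 0.00978% and 0 of all genes, so that nothing about the list follows from these counts. With shControl alone as control 37 of the 61 were called, and with shNontarget alone 8, in fits that called 33.4% and 1.67% of all genes, so that the calls over the whole array moved the same way.

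Of the 6 genes tested under other ligands, GDF15 and BMP1 fell and 0 rose (33.3% called, against 12.9% of all genes). GDF15, a stress-induced member of the superfamily, fell by 2.22 on the log2 scale (standard error 0.23, adjusted p = 0.00122 from limma). Its levels were 2.71, 2.38, 3.35 and 3.20 on the control arrays and 1.09, 0.57, 0.62 and 0.46 on the BEX2-knockdown arrays. BMP1, which despite its name is a procollagen-processing metalloprotease that also cleaves latency proteins, fell by 0.74. It lost that call in 5 of its 22 alternatives, its log2 difference was -0.57 with shNontarget alone as control, and with normexp background correction it was -0.45, still past the threshold.

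Close to the share of all genes, 1 of 11 receptor genes fell and 0 rose (9.09% called, against 12.9% of all genes). That was ACVR1, a type I receptor for activins and BMPs, which fell by 1.03 (adjusted p = 0.00755 from limma), with levels from -0.80 to -0.08 on the control arrays and from -1.61 to -1.23 on the knockdown arrays. With shNontarget alone as control the difference was -0.76 and missed the threshold. The activin type II receptor ACVR2A had a log2 difference of -0.13 (95% confidence interval -0.56 to 0.30), and TGFBR1 and TGFBR2, the type I and type II receptors of the TGF-betas, of 0.04 (95% confidence interval -0.42 to 0.50) and -0.26 (95% confidence interval -0.76 to 0.23), all without passing; these 3 were named after their values were seen.

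Among 14 SMADs and their regulators, 2 rose and 2 fell (28.6% called, against 12.9% of all genes). The inhibitory SMADs, SMAD6 and SMAD7, which block the receptors and are themselves induced by the pathway, fell by 1.24 and 0.88. SKI, a co-repressor of SMAD-driven transcription, rose by 0.96, and SMURF2, a ubiquitin ligase for SMADs and receptors, rose by 0.78. The call on SKI was lost in 10 of 22 alternatives, among them both shBEX2-1 and both shBEX2-2 arrays left out in turn, and SMAD6, SMAD7 and SMURF2 lost theirs with shNontarget alone as control, where their differences were -0.91, -0.94 and 0.83.

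Of 14 extracellular binders and genes of processing or latency, 5 fell and 1 rose (42.9% called, against 12.9% of all genes). Those that fell included LTBP3, LTBP2 and LTBP1, of the family named latent TGF-beta binding proteins, with log2 differences of -1.99, -1.94 and -1.68. ITGB8, the beta subunit of an integrin that activates latent TGF-beta, fell by 1.63, and BAMBI, a decoy receptor, by 1.03. LTBP3 levels were from 0.84 to 2.04 on the control arrays and from -0.77 to -0.48 on the knockdown arrays. THBS1, thrombospondin 1, an activator of latent TGF-beta, was the gene of this role that rose, by 0.85. It lay from 5.33 to 6.22 on the control arrays and from 6.41 to 6.88 on the knockdown arrays, and its call was lost in 11 of 22 alternatives. With normexp background correction the differences of LTBP1 and LTBP2 were -0.84 and -1.18, both still past the threshold. The calls on LTBP2, LTBP1 and ITGB8 were lost with shNontarget alone as control, at log2 differences of -1.76, -1.75 and -1.05.

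Target genes of SMAD signalling fell more often than they rose, 8 against 2 of 16 tested (62.5% called), with a median log2 difference of -0.84. Of all genes, 6.24% fell and 6.70% rose. HMGA2, counted as a fall, had 3 probes, each well above background on 8 arrays. The brightest, used here, gave -0.76, and the others gave -0.22 and 0.13. Target genes with the largest changes were ID1, which rose by 1.86, CTGF, which fell by 1.79, JUNB, which fell by 1.54, ID3, which rose by 1.32, and BHLHE40, which fell by 1.22. ID1 and ID3, inhibitors of basic helix-loop-helix factors, are known as targets of the BMP branch. Levels of ID1 ran from 0.93 to 1.95 on the control arrays and from 2.80 to 3.48 on the knockdown arrays. Those of ID3 ran from -1.71 to -1.47 and from -0.49 to 0.13. CTGF, a matricellular growth factor gene, was at -1.53 and -1.38 in shControl cells but at 0.01 and 0.88 in shNontarget cells, and from -2.34 to -2.18 with the BEX2 hairpins. Its log2 difference was -0.80 for shBEX2-1 and -0.88 for shBEX2-2 against shControl, and -2.70 and -2.78 against shNontarget. Over both sublines it was -0.84 with shControl alone as control and -2.74 with shNontarget alone. Its call was lost in 9 of 22 alternatives, the replicate block among them, and BHLHE40 lost its call with shNontarget alone as control, where its difference was -1.37.

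**Figure D4:**
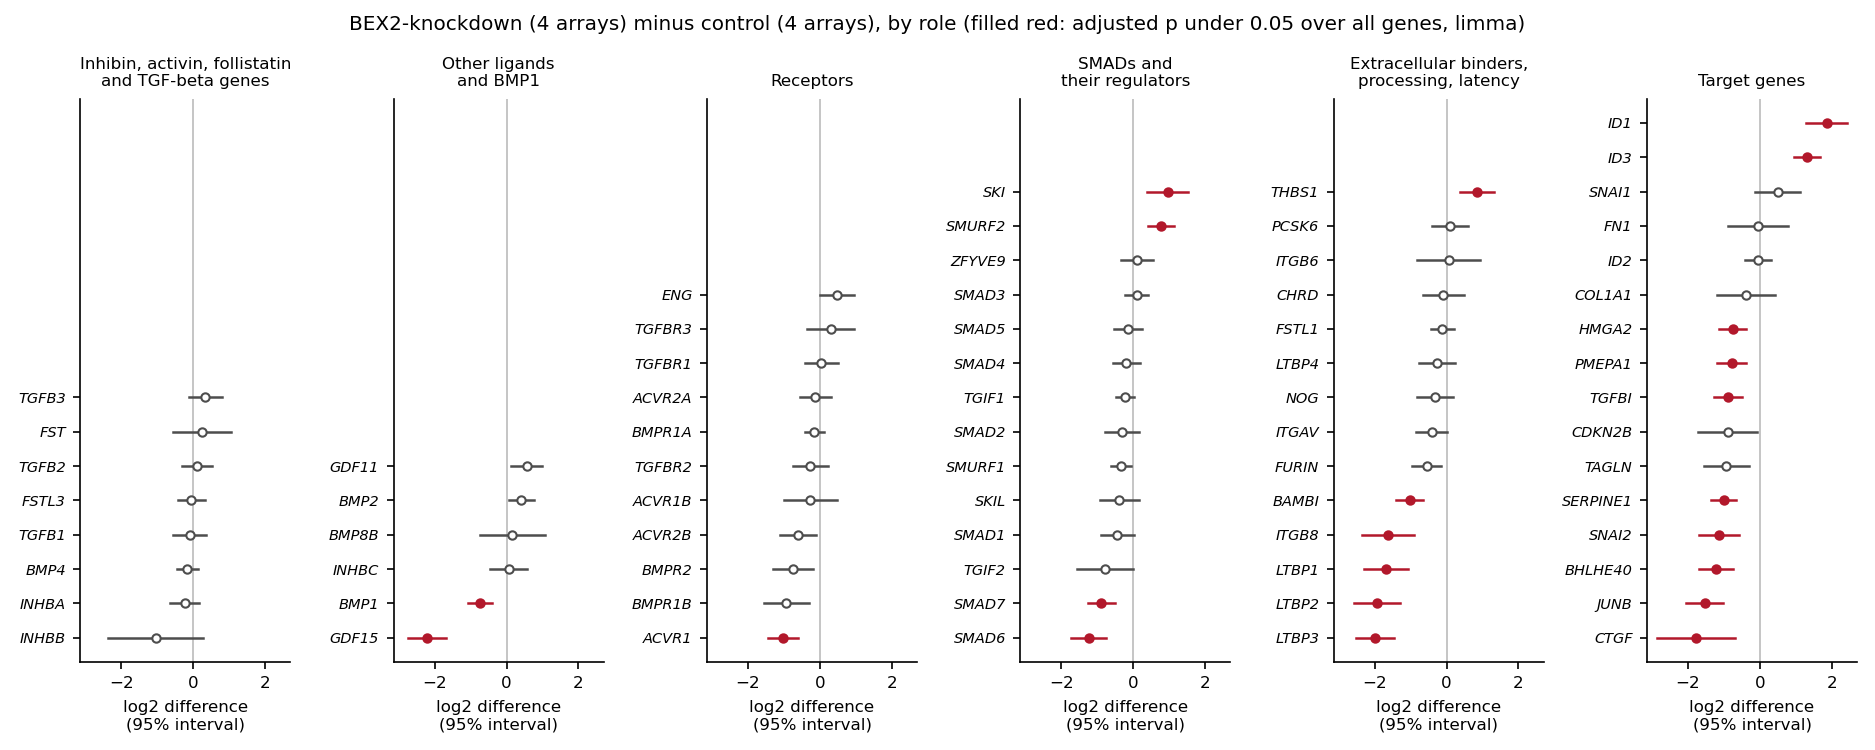
Log2 difference between 4 BEX2-knockdown and 4 control arrays with its 95% confidence interval, for the 8 tested members and the 61 other tested genes of the superfamily by role, with filled red symbols for an adjusted p under 0.05 from limma over all genes. Filled are 0 of the 8 members, 1 of 11 receptors and 4 of 14 SMADs and regulators. Also filled are 6 of 14 extracellular genes and 10 of 16 target genes. Among the 6 listed with the other ligands, GDF15 and BMP1, a metalloprotease, are filled. Of all genes tested, 12.9% were called.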

How the data were processed

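RNA of HuCCT1 cells was labelled with Cy3 and hybridized to Agilent arrays, and the spots were read by Agilent Feature Extraction 10.7.3.1 per the submitters' processing notes. The authors deposited each spot's processed intensity, which that software had background-subtracted and detrended within the array, with low values replaced by a surrogate (between 19.9% and 25.9% of non-control spots) and no scaling between arrays. A series table that the authors also deposited has these intensities to within 0.497%.

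Control spots and between 317 and 521 outlier spots per array were left out, log2 was taken, and each array was set relative to its 75th percentile. The mean of a probe's spots was used. A probe had to be well above background on 4 or more of the 8 arrays, and the brightest probe by mean stood for its gene. Each member had 1 probe, so that this choice changed nothing for them. Where no array of a vector had the probe well above background, the fold was bounded by the higher of its own value and the lowest value well above background there. Which part of a transcript each probe reads is not given in the sources used here. No spot was saturated, and the number of arrays limits precision.

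Tests used limma 3.58.1 in R 4.3.3 (lmFit, eBayes with an intensity trend), with Benjamini-Hochberg adjustment over all genes, a threshold of 0.05 and statmod 1.5.0 for a random block. Python 3.11.15, pandas 2.3.3, numpy 2.4.6 and matplotlib 3.10.9 read files and drew figures. One model compared 4 with 4 arrays, taken as independent although each group held 2 vectors. Another, with 4 residual degrees of freedom, gave 6 vector pairs. With 2 arrays against 2, an exact permutation test cannot go below p = 0.333, so none was used. The members and gene lists were chosen with earlier results of these data known. Other genes of the superfamily were named by role, those called in the knockdown comparison and at most the 5 largest, and THBS1, ACVR2A, TGFBR1 and TGFBR2 were added after their values were seen. The main models had no term for the replicate. For the replicate block, an alternative, replicate numbers were taken to pair arrays across vectors, since deposited file names give replicates 1 and 2 a day each. Replicate differences of 2 vectors correlated across genes with r of 0.26, 0.13, 0.11, -0.06, 0.21 and 0.23. Alternatives covered normalization, background correction, filters, probes, blocks, controls, tests and each array left out. On data simulated for the knockdown comparison, with 20449 genes and 200 changed, limma recovered 43% of changes of 1 on the log2 scale and 88% of changes of 2. For shBEX2-1 against shControl limma recovered 0% and 65%. In the knockdown comparison a rank product recovered 14% and 99%. Of its calls there 66.3% and 32.9% were false, against 2.27% and 8.33% for limma. The simulated arrays of a gene all had the same spread, unlike the shNontarget arrays here, and fewer genes changed than were called in the data. In the simulated knockdown comparison the vectors of a group did not differ from each other, unlike the sublines here for INHBB. These shares may therefore not hold for the real arrays.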

Additional observations from a re-analysis of the deposited data

Results flagged for a closer look

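Among the 4 control arrays, shNontarget replicate 2 lay far from the other 3 for 4 of the 8 tested members. The gap to its nearest neighbour, as a share of the range of the 4 arrays, was 0.915 for INHBA, 0.895 for FST, 0.890 for FSTL3 and 0.874 for TGFB1, each above Dixon's critical value for 4 values. It was the brightest array for INHBA, FST and FSTL3 and the dimmest for TGFB1. In all 18 groups were examined in this way, and chance passes about 1 in 20 of independent groups with values of one kind. Here each group held 2 vectors, and the 4 groups that passed share 1 array. The spots of each of these probes varied little on that array, with standard deviations from 0.038 for FST to 0.073 for FSTL3. Over all tested genes, shNontarget replicates 1 and 2 lay a median of 0.398 and 0.412 from the shControl mean on the log2 scale. The part of such overall distance was not tested.

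INHBB differed between the BEX2-knockdown sublines by 2.43 on the log2 scale, higher in shBEX2-2 cells, although both hairpins target BEX2. The adjusted p was 0.0454 from limma, and this call was lost in 10 of 17 alternatives. INHBB was listed with results of these arrays known, and it had the lowest p of all genes in that contrast. This p-value therefore describes the difference and is no independent test of it. BEX2 itself read at least 1.53-fold higher in shBEX2-2 cells, a bound given since the shBEX2-1 readings were not well above background. That bound is the ratio of the readings and allows for no error of measurement. The difference in BEX2 did not pass the test (adjusted p = 0.976 from limma).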

How the results depend on the processing

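The knockdown comparison called 0 of 8 members under each of its 22 alternatives. INHBA, INHBB, FST, TGFB3 and BMP4 kept their sign throughout. The log2 difference of FSTL3 turned to 0.0532 with shControl alone as control and ran from -0.120 to 0.0619 with each array left out, above 0 without shNontarget replicate 2 or either shBEX2-2 array. That of TGFB1 turned to 0.0707 with shNontarget alone. That of TGFB2 turned to -0.209 with shControl alone and ran from -0.0235 to 0.219 with each array left out, below 0 without shNontarget replicate 1. The cause was not tested.

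Counts of members called between vectors moved with single arrays. With each array left out in turn, every count above 1 came from leaving out a shNontarget array. Where the array left out belonged to a compared vector, that vector was a single array, assumed to vary like the arrays of the other vectors. Leaving out both shNontarget arrays, added after the data were seen, gave 3 members for shBEX2-1 minus shControl and 3 between the sublines. Those contrasts then called 43.4% and 14.4% of all genes. The FST call was lost (0 members) with quantile normalization, no filter on dim probes and the replicate block, and without each of the 6 arrays of other vectors. The INHBB call between the sublines was lost (0 members) with normexp, no filter, the filter of all 8 arrays and the replicate block, and without each of the same 6 arrays, at adjusted p-values from 0.278 to 0.647 from limma. Over all genes, leaving out a shNontarget array raised the calls for shBEX2-1 minus shControl from 1088 to 8884 and 8881, and leaving out any of the other 6 arrays gave 0. Keeping population outlier spots, also added later, changed no call on a member. The replicate block changed no other call on a member.

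Of the other superfamily genes, 37 were called with shControl alone, 8 with shNontarget alone and 9 by the rank product, against 23, where all genes gave 6824, 341 and 848 calls against 2647. Of 18 named genes, 5 kept their call in all 22 alternatives (GDF15, LTBP3, ID1, JUNB and ID3), and none reversed. Brightness limited INHBE, INHA and BEX2.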
